A study of Mus musculus with 12 samples.

Results

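The Dlx and Msx genes encode homeobox transcription factors of the early jaw, teeth, limbs, skin appendages and forebrain. Their H3K27me3 was described from the sites listed for immortalized mouse embryo fibroblasts (iMEF cells). The 8 genes were Dlx1, Dlx2, Dlx3, Dlx4, Dlx5, Dlx6, Msx1 and Msx2. A site belonged to a gene if it shared at least 1 bp with the gene body extended by 20 kb on both sides, here called the window. This rule took 31 of the 101389 sites of the whole list. All 8 genes had at least 1 site, as did 61.5% of all protein-coding genes, but the loci differed widely. Dlx3 and Dlx4 lay entirely inside sites. Msx1 and Msx2 had sites on both flanks and none over their start sites. Dlx6 had sites over its start, whereas every start of Dlx5 was at least 16751 bp from a site. Dlx1 and Dlx2 shared a single site.

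H3K27me3 is the trimethylated form of lysine 27 of histone H3. It is placed by Polycomb repressive complex 2 and is a mark of silenced developmental genes, often at promoters rich in CpG dinucleotides. The mammalian Dlx genes, relatives of Distal-less of the fly, stand in convergent pairs. The genes of such a pair point towards each other and use common enhancers in and around the stretch between them. The 3 pairs were Dlx1 with Dlx2, Dlx3 with Dlx4, and Dlx5 with Dlx6. The Msx genes stand alone. They act downstream of bone morphogenetic protein (BMP) signals in neural crest, teeth and limb buds.

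The libraries came from 1 clone of iMEF cells, NG3, so other clones may differ. All groups shared its genotype: floxed Ash2l alleles deleted by a tamoxifen-activated Cre (Cre-ER), and a lentiviral human ASH2L fused to FKBP12 F36V and 2 HA tags. ASH2L is a subunit of the complexes that methylate lysine 4 of histone H3, and the compound dTAG sends the fusion protein to degradation. The 8 H3K27me3 libraries comprised 2 each of untreated cells and of cells given dTAG for 16 h, 24 h or 48 h. As input, chromatin without immunoprecipitation was sequenced in 4 libraries, 2 from untreated cells and 2 from cells given dTAG for 48 h. The list pools the H3K27me3 sites identified across all samples and gives the chromosome, start and end of each. It holds no signal and no value of a single library, so the depth obtained is unknown and no group or replicate could be compared from it. The study's separate table of sites that changed with time was not used here. A site present in all cells, in some of them or at 1 time point cannot be told apart. With no expression values, the labelled cell type could not be checked against fibroblast markers. All values below are positions and covered bases of the pooled list, without replicate error or test.

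The sequences in question were of different kinds, so a few are shown before the values. The first 4 are RefSeq promoters (GRCm38.p6), from 250 bases before to 50 bases after a start, written 5′ to 3′ on the strand of the gene. Promoters of 4 of the 8 genes were matched by symbol. Dlx3, Dlx4, Dlx5 and Dlx6 are named only. The printed promoters of Dlx1, Dlx2, Msx1 and Msx2 shared no base with a site. Capitals mark CpG dinucleotides.

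Dlx1, chr2:71529195-71529494, plus strand: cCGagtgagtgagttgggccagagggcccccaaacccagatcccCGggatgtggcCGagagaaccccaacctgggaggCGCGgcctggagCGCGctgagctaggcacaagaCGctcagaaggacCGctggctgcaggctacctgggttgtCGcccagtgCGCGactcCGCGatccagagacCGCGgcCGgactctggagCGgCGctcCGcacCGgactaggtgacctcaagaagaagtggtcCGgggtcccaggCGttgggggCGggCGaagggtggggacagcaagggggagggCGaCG
Dlx2, chr2:71546705-71547004, minus strand: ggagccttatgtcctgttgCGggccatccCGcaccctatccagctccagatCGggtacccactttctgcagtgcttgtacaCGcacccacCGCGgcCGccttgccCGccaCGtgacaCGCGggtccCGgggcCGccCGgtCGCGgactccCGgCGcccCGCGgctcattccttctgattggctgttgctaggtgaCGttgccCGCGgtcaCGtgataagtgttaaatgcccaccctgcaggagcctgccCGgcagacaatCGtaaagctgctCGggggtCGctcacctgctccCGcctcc
Msx1, chr5:37824536-37824835, minus strand: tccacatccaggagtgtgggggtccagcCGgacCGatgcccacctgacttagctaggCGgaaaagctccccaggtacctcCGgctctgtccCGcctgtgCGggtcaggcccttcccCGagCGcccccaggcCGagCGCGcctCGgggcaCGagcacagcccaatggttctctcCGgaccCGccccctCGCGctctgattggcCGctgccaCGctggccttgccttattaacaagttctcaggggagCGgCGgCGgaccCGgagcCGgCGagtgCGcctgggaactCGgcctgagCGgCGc
Msx2, chr13:53472731-53473030, minus strand: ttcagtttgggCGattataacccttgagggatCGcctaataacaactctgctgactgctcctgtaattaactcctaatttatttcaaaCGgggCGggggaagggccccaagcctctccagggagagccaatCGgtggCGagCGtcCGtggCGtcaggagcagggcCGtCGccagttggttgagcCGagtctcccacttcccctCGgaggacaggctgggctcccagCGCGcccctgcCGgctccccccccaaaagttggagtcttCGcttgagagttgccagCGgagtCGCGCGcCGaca

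The promoters held 27 CpGs at Dlx1, 29 at Dlx2, 29 at Msx1 and 22 at Msx2. The median over all 32851 RefSeq mouse promoters of this length was 7 CpGs and their 90th percentile was 31. The nearest site was 20933 bp away from the Dlx1 promoter, 3423 bp from that of Dlx2, 576 bp from that of Msx1 and 385 bp from that of Msx2. These promoters were thus rich in CpGs and free of listed sites. The letters TAATTA, a core that many homeodomain proteins bind, read the same on both strands. They were present once in the Msx2 promoter and in none of the other 3. Of all promoters of this length, 5.29% held them.

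The next 3 stretches lay wholly inside sites. They are printed from the plus strand of GRCm38.p6, again with CpGs in capitals. The first is the middle of the only site of the Dlx1 and Dlx2 windows, which had no gene on it. The others are the middles of CpG islands on the upstream side of Msx1 and of Msx2, shown because they were covered while the start of the gene was not.

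Site upstream of Dlx2, chr2:71551410-71551709: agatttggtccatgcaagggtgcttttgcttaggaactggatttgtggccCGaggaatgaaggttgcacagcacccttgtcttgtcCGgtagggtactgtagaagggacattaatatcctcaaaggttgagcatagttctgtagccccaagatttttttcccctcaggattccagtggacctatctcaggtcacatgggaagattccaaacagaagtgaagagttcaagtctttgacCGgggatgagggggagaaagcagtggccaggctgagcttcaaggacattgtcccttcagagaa
Island upstream of Msx1, chr5:37826738-37827037: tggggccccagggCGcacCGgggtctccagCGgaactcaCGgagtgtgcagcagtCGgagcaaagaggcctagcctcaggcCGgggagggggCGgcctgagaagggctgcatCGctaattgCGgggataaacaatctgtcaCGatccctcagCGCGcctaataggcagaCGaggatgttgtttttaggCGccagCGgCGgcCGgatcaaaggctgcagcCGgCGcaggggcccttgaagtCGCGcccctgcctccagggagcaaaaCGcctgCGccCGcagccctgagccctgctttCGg
Island upstream of Msx2, chr13:53476013-53476312: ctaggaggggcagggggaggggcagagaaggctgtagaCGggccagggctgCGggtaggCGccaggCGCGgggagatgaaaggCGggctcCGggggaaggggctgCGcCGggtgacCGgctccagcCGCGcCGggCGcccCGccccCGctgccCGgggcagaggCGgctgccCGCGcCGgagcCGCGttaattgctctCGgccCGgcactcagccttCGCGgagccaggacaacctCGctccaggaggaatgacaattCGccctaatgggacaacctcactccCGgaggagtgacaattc

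The stretch near Dlx2 held 3 CpGs, against 25 near Msx1 and 30 near Msx2. Covered bases at these loci therefore included both CpG-poor and CpG-rich sequence, and CpG-rich sequence was found both inside and outside sites.

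Across the 8 windows, the share of bases inside sites ran from 4.94% at Dlx1 to 81.2% at Msx1, with a median of 17.7%. The median over the 21755 protein-coding genes of chromosomes 1 to 19 and X was 1.88%, and their 90th percentile was 37.9%. A site in the window was found at 8 of 8 genes, against a background of 61.5% of all protein-coding genes. A site within 1 kb of any annotated transcription start site (TSS) was found at 5 of 8, against 26.9%. The TSS farthest upstream lay inside a site at 3 of 8, against 18.1%. At least 50% of the window was covered at 3 of 8, namely Dlx3, Dlx4 and Msx1, against 6.47%. The genes were picked with earlier results of this list known and share 5 loci, so these counts are descriptions.

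Most of these promoters were CpG-rich, which bears on the background. In the 1000 bp around the TSS farthest upstream, 7 of the 8 genes reached a GC content of 50% and a ratio of observed to expected CpGs of 0.6. Dlx1 did not, with 44.5% GC. Its most upstream TSS lay 796 bp from its CpG island. Of 9739 protein-coding genes with such a promoter, 64.7% had a site in the window, 22.2% had a TSS within 1 kb of a site, 15.5% had the TSS inside a site and 5.26% had at least 50% of the window covered. The 7 CpG-rich genes gave 7, 5, 3 and 3 by the same counts.

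**Figure D1:**
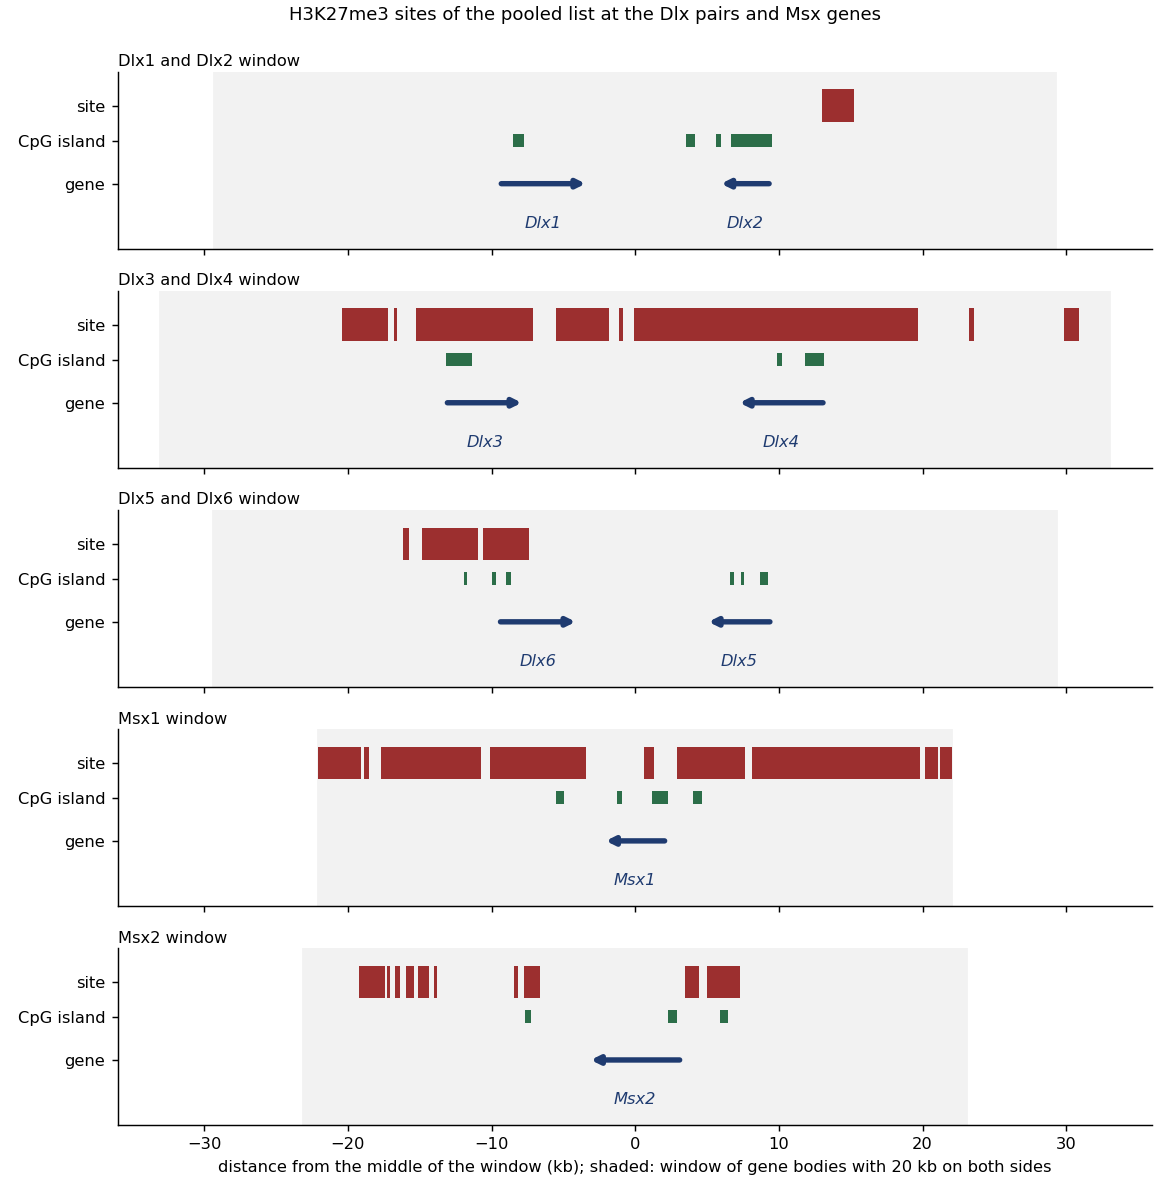
Map of the 5 loci, each drawn to scale with the distance from the middle of its window in kb on the x axis. Red blocks are H3K27me3 sites clipped to the shaded window, green blocks are CpG islands and arrows are gene bodies in the direction of transcription. Sites cover both genes at Dlx3 and Dlx4, the start of Dlx6 only, and the flanks but not the start of Msx1 and Msx2.

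Dlx3 and Dlx4, known from skin, tooth, bone and placenta, were the pair with the most covered bases. Dlx3 lies at chr11:95120119-95125296 on the plus strand and Dlx4 at chr11:95140447-95146263 on the minus strand (GRCm38). Their joint window held 8 sites and 36.7 kb of covered bases, or 55.5% of its length. The whole of chromosome 11 was covered to 10.9%, so the window held 5.08 times that share. Every base of both gene bodies was covered, coding sequence, untranslated regions and introns alike. Of the 15150 bp between the genes 79.9% was covered. The outer flanks held less, with 27.9% upstream of Dlx3 and 40.1% upstream of Dlx4.

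The widest site of the pair, and of all 31, spanned 19767 bp at chr11:95133094-95152860. It covered Dlx4 with both of its TSSs and the TSS of Dlx4os, an antisense RNA gene whose body was covered to 58.4%. The next in width, 8146 bp at chr11:95117925-95126070, covered Dlx3 with its only TSS. The third, 3711 bp at chr11:95127672-95131382, lay between the genes. With gaps under 3 kb joined, 6 sites formed a single run of 40.1 kb that held both genes. Beyond a gap on the upstream side of Dlx4, another run of 15 sites began in the window and was 85 kb long, without a protein-coding gene. Of 32458 such runs on the chromosomes, 256 were at least that long, this run included, or 0.789%. The nearest protein-coding gene beyond the widest site was Tac4, a tachykinin gene, 108668 bp away. Tac4 had no TSS within 1 kb of a site and 13.1% of its window covered.

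Dlx5 and Dlx6 act together downstream of endothelin signalling to give the lower jaw its identity. Dlx6 lies at chr6:6863334-6868568 on the plus strand and Dlx5 at chr6:6877805-6882085 on the minus strand. The joint window held 3 sites and 7.44 kb of covered bases, or 12.7%, against 7.51% for chromosome 6. All of it lay on the Dlx6 side. The widest site, 3871 bp at chr6:6857885-6861755, and a site of 392 bp lay upstream of Dlx6, inside the body of the antisense RNA gene Dlx6os1. The site at chr6:6862145-6865317, 3173 bp wide, covered all 3 TSSs of Dlx6, 642 of its 891 coding bases and the whole of Dlx6os2, a short record on the opposite strand. Since sites have no strand, they cannot be given to Dlx6 or to its antisense partners.

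Dlx5 was bare over its body, its upstream 20 kb and the 9236 bp between the genes. Its window share of 15.9% came from the 2 widest of these sites, which lie in both windows. The window of Dlx6, at 16.4%, also held the site of 392 bp. The stretch without a site around the Dlx5 TSS was 57705 bp long. The 3 CpG islands of the Dlx6 side were fully covered and the 3 islands in the body of Dlx5 were not touched. The nearest protein-coding gene on the outer side of the widest site, Sem1, a proteasome subunit gene, was 279221 bp away and had no site in its window.

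Dlx1 and Dlx2 drive the formation of inhibitory interneurons in the forebrain and pattern the upper jaw. Dlx1 lies at chr2:71528113-71533981 on the plus strand and Dlx2 at chr2:71543408-71546754 on the minus strand. Their joint window held 1 site of 2266 bp, at chr2:71550427-71552692, which overlapped no annotated gene. It covered 3.86% of the window, below the 8.56% of chromosome 2. Neither gene body, nor the 9426 bp between the genes, nor the 20 kb upstream of Dlx1 held a covered base. The site lay 3673 bp from the most upstream TSS of Dlx2, and no closer than 19647 bp to any of the 6 TSSs of Dlx1.

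Both genes lay in a stretch of 100487 bp without a site, at chr2:71449940-71550426. It also held Dlx1as, the RNA gene antisense to Dlx1, and the body of Metap1d, a mitochondrial methionine aminopeptidase gene. The 4 CpG islands of the window, 4481 bp in all, were not touched by a site, although the island at the start of Dlx2 was the longest of all loci with 2789 bp. By the share of their windows, Dlx1 and Dlx2 stood at percentiles 60.3 and 61 of all protein-coding genes. The nearest protein-coding gene beyond the site, Itga6, an integrin gene, was 192923 bp away and had a site 935 bp from its TSS. Its window was covered to 5.06%.

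**Figure D2:**
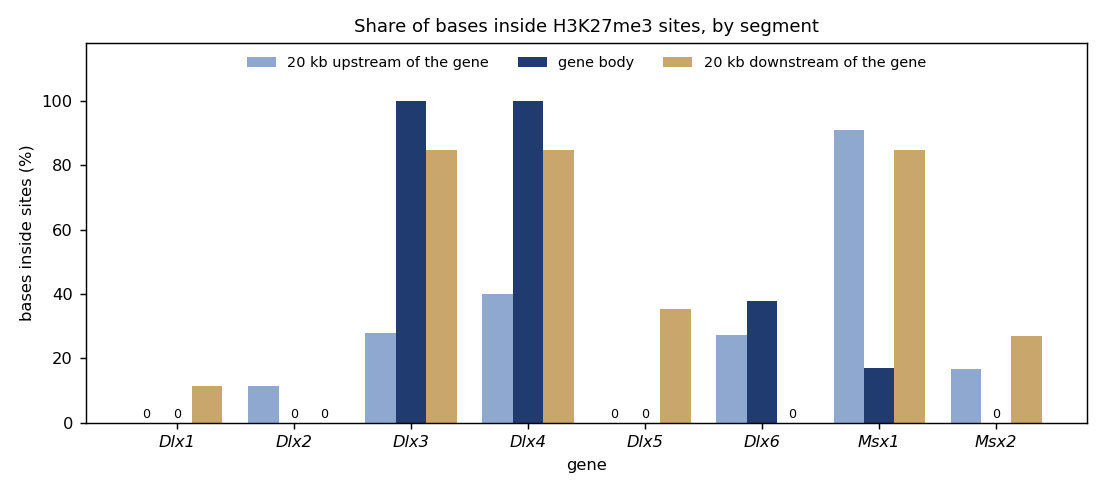
Share of bases inside H3K27me3 sites in % on the y axis, for each gene on the x axis, in the 20 kb upstream, the gene body and the 20 kb downstream; a 0 marks a segment without a covered base. Gene bodies reach 100% at Dlx3 and Dlx4, 37.9% at Dlx6, 16.9% at Msx1 and 0 at the other 4 genes.

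Msx1, which teeth and palate need for their growth, had the highest covered share among the members, yet most of its gene body lay outside listed sites. It lies at chr5:37820485-37824583 on the minus strand. Its window held 9 sites and 35.8 kb of covered bases, or 81.2%, and 300 of the 21755 protein-coding genes had a share at least as high. Chromosome 5 as a whole was covered to 7.52%. The upstream flank was covered to 90.9% and the downstream flank to 84.7%, but the body to 16.9%. No coding or untranslated base of Msx1 was inside a site. The covered part of the body was a site of 693 bp at chr5:37823162-37823854, in the intron.

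The start of Msx1 lay in a stretch of 1556 bp without a site, at chr5:37823855-37825410. Seen from the most upstream TSS, the site in the intron began 729 bp downstream and the next site ended 828 bp upstream. The CpG island over the start, 1101 bp long, was covered to 13.4%, at its end in the intron. Another island in the body was not touched, while the islands upstream and downstream of the gene were fully covered. RefSeq lists 2 enhancers of the VISTA browser in this window, which were tested in transgenic embryos. The element mm426, at chr5:37825669-37829220 upstream of the gene, was covered in full, and mm425, at chr5:37818652-37819645 downstream, to 44.5%.

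The sites of Msx1 ran on far past the window. The widest sites were 11716 bp at chr5:37830646-37842361, 8870 bp at chr5:37794590-37803459 and 6962 bp at chr5:37804831-37811792. The last of them covered the whole of Gm43763, a long noncoding RNA gene of unknown function. Sites less than 3 kb apart formed a run of 54.2 kb downstream of the gene and a run of 50.8 kb that began in its intron and went upstream. Each had 13 sites. In the 200 kb centred on Msx1, 75.9% of bases were covered. The corresponding shares were 47.6% at Dlx3 and Dlx4, 20.2% at Msx2, 3.99% at Dlx5 and Dlx6, and 2.74% at Dlx1 and Dlx2. The nearest protein-coding gene beyond the widest site, Stx18, a syntaxin gene, was 196380 bp away. It had a site 663 bp from its most upstream TSS, no covered base in its body and 10.1% of its window covered.

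Msx2, which acts in the growth of the skull bones, had sites on both flanks, as Msx1 did, but fewer covered bases. It lies at chr13:53466884-53473074 on the minus strand. The window held 10 sites but 8.72 kb of covered bases, or 18.9%, against 5.72% for chromosome 13. The upstream flank was covered to 16.7%, the downstream flank to 26.9% and the body to 0. The sites were narrow, with a median width of 655 bp against 4734 bp at Msx1. The widest were 2335 bp at chr13:53474965-53477299 upstream of the gene, 1824 bp at chr13:53450757-53452580 and 1132 bp at chr13:53462231-53463362, both downstream. A group of 5 sites lay in Gm2762, a long noncoding RNA gene of unknown function.

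The body and the start of Msx2 lay in a stretch of 10052 bp without a site. The nearest site ended this stretch 341 bp upstream of the only GENCODE TSS. The CpG island near the start, 610 bp long, was not touched, and the islands farther upstream and downstream were fully covered. At both Msx1 and Msx2, then, the islands on the flanks were covered and the island at the start was not or in small part. The nearest protein-coding gene beyond the widest site, Drd1, which encodes a dopamine receptor, was 573883 bp away. Its body was covered to 100% and its window to 62.4%.

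**Figure D3:**
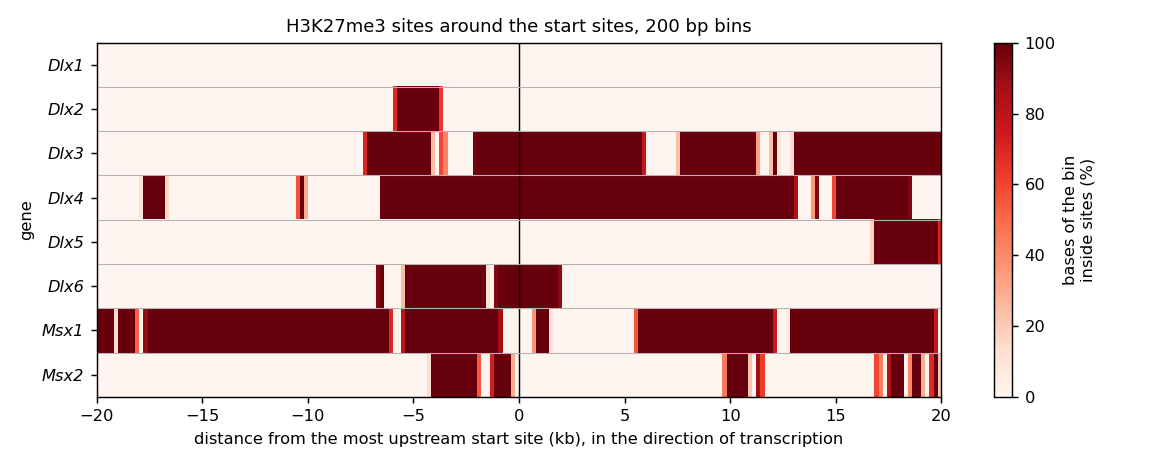
Percent of the bases of each 200 bp bin inside H3K27me3 sites (colour), by distance in kb from the most upstream start of each gene (x axis, positive in the direction of transcription). The row of Dlx1 is empty, the start lies in a site at Dlx3, Dlx4 and Dlx6, and the nearest upstream site ends 828 bp before it at Msx1 and 341 bp before it at Msx2.

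Each gene had a CpG island within 1 kb of its most upstream TSS. The nearest island was fully covered at 3 genes (Dlx3, Dlx4 and Dlx6), covered in part at Msx1 and not touched at 4 genes (Dlx1, Dlx2, Dlx5 and Msx2). Of the 11817 protein-coding genes with an island that near, it was fully covered at 17.2% and not touched at 79%. Over all 5 loci there were 20 islands, of which 11 were touched by a site and 10 were fully covered. Of the 16082 islands found in the same way on chromosomes 1 to 19 and X, 26.1% were touched and 22.2% fully covered. Covered bases were richer in CpGs than the others at 3 loci. They held 22 CpGs per kb against 13.1 at Dlx3 and Dlx4, 35.1 against 15.2 at Dlx5 and Dlx6, and 23.6 against 15.3 at Msx2. The order was turned around at the other 2 loci, with 15.4 against 21.9 at Dlx1 and Dlx2 and 17.8 against 25.3 at Msx1.

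The Dlx genes can also be read by ancestry, with Dlx1, Dlx4 and Dlx6 on one side of the pairs and Dlx2, Dlx3 and Dlx5 on the other. Coverage did not follow these sides. Gene bodies were covered to 0, 100% and 37.9% for Dlx1, Dlx4 and Dlx6, and to 0, 100% and 0 for Dlx2, Dlx3 and Dlx5. A TSS within 1 kb of a site was found for 2 of 3 genes on the former side and 1 of 3 on the latter, against 26.9% of all protein-coding genes. A body without a covered base was found at 69.4% of all protein-coding genes, and a fully covered body at 2.79%. The 0 of Dlx1, Dlx2 and Dlx5 is therefore the common state.

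The layout around the TSS was compared in 200 bp bins from 20 kb upstream to 20 kb downstream, in the direction of transcription. The measure was the Jaccard index, the number of bins covered in both genes divided by the number covered in either. Among the members it was highest for Dlx3 and Dlx4, at 0.653. These genes share 3 sites in the ranges compared and so are not independent. The index depends on how many bins each gene has covered. Msx1 had 164 of 200 bins covered and Msx2 had 33, so their index could not exceed 0.201. It was 0.187, with 31 bins covered in both. It was 0 for Dlx5 with Dlx6, although these genes share 1 site in the ranges compared. That site covered the start of Dlx6 but began 16768 bp downstream of the Dlx5 start, so it fell in different bins. Dlx1 had no covered bin.

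Outside its own locus, the protein-coding gene most like each member was Ncan for Dlx4 (0.866), Ccdc155 for Dlx3 (0.833), Zpbp2 for Msx1 (0.868) and Slc27a4 for Msx2 (0.444). For Dlx6, with 37 covered bins, it was Lhx6, at 0.833. Lhx6 is also in the list of forebrain genes below, but the index compares only positions of sites and shows no link in function. Dlx2 with 12 covered bins was most like Zfp26 (0.917). Dlx5 with 16 covered bins had the same bins as Slc38a2 and Timm17b. With so few covered bins, a single site in the right place gives a high index. Msx2, with several small groups of sites, had no close match.

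To place the 8 genes in their pathways, 27 genes that act upstream of them, work with them or respond to them were counted in the same way. Of these, 23 had a site in the window, 21 had a TSS within 1 kb of a site and 9 had at least 50% of the window covered. The shares of all protein-coding genes were 61.5%, 26.9% and 6.47%. Their median covered share was 37.5%, above the 17.7% of the Dlx and Msx genes and the 1.88% of all genes. Nothing particular to the Dlx and Msx genes was read from this list.

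Of the genes of forebrain interneurons, some, such as Gsx2, act upstream of Dlx1 and Dlx2 and others respond to them. At all 7 the most upstream TSS lay inside a site, against 18.1% of all protein-coding genes, and their median covered share was 45.2%. The homeobox gene Gsx2 had 80.3% of its window covered. Gad1, which encodes an enzyme of GABA synthesis, had 55.9%. Lhx6 and Gad2 were lowest at 19.1% and 14%. All 7 were above Dlx1 and Dlx2, at 4.94% and 5.23%.

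The signals were mixed. Bmp2, a BMP ligand, had 73.9% of its window covered, but Bmp4 had 14.5% and Bmp7 13.9%. Of the endothelin pathway, which switches on Dlx5 and Dlx6 in the jaw, the ligand gene Edn1 had no site in its window and the receptor gene Ednra had 6.88% covered. Fgf8 and Wnt1, which encode secreted growth factors, had 40.6% and 45.9%. In all, a TSS of 6 of 7 signal genes had a site within 1 kb, against 26.9% of all protein-coding genes.

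Among the partners and co-regulators, 6 of 9 had a TSS with a site within 1 kb, against the same 26.9%. The homeobox genes Barx1 and Gsc were nearly full at 95% and 92.2%, and Hand2, a helix-loop-helix factor of the lower jaw, had 79%. Pax3, a marker of dorsal neural tube and neural crest, had 61.5%. Mef2c and Twist1, both active in mesenchyme, had no site in the window. Pax9, a partner of Msx1 in the tooth, had 3.6%.

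A TSS with a site within 1 kb was found at 2 of the 4 bone genes, a number too small to set apart from 26.9%. Runx2, the master factor of bone cells, had no site in its window. Alpl, the alkaline phosphatase of mineralizing cells, had 59.2% covered. Sp7 had 5.49%, and Bglap, the osteocalcin gene, 0.713%.

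**Figure D4:**
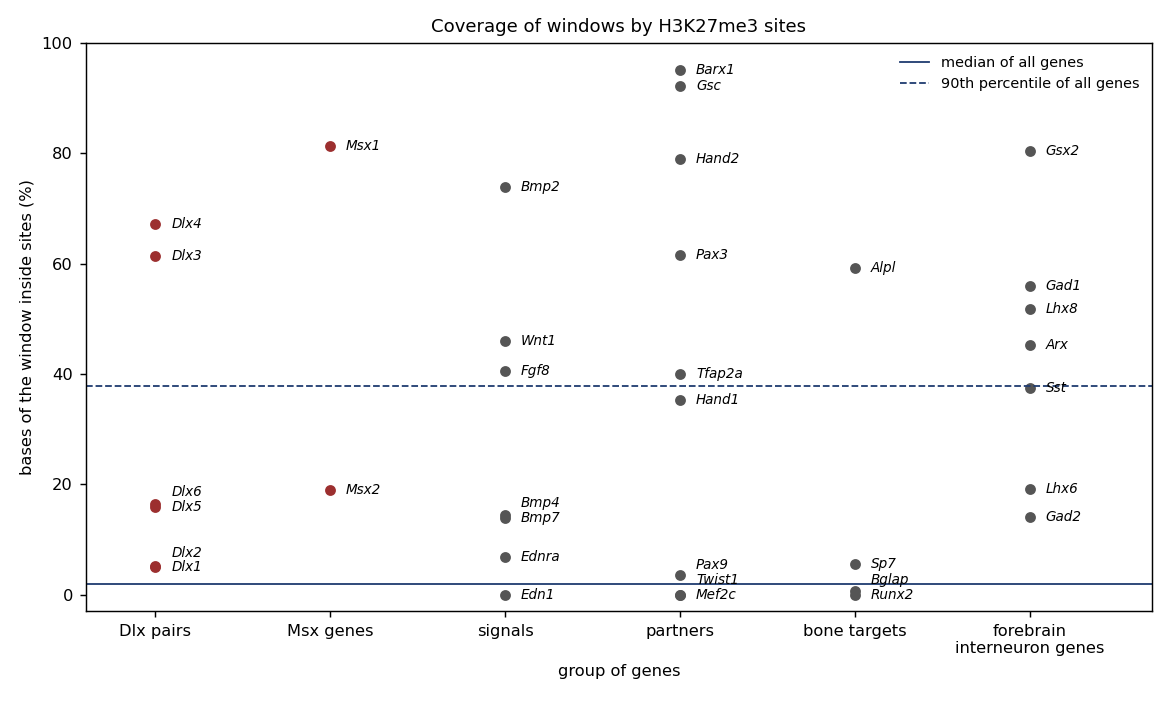
Percent of the window (gene body with 20 kb on both sides) inside H3K27me3 sites on the y axis for the Dlx and Msx genes (red) and the 4 groups of pathway genes (grey) on the x axis. Lines mark the median (1.88%) and the 90th percentile (37.9%) of all protein-coding genes; Dlx3, Dlx4 and Msx1 lie above both, and the other 5 genes lie between them.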

How the data were processed

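The deposited list was used, in which each row is the position of an H3K27me3 site over all samples. Per the study's methods, BWA aligned the trimmed reads (Trim Galore) to mm10, Picard merged replicates, and the authors called broad peaks with MACS. Versions, cutoffs and the rule for joining peaks of different samples are not given in the sources used here. No per-sample column was left unused (0 columns). Starts were read as counted from 0, an inference from the smallest width of 200 bp, and are printed counted from 1. Broad calling fixes the smallest width and the gaps that are bridged, so covered bases depend on it.

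Gene bodies and TSSs came from GENCODE M21. Overlaps were computed in Python 3.11.15 with numpy 2.4.6 and pandas 2.3.3, and checked on simulated intervals. CpG islands were scored in repeat-masked sequence with 17 for a CpG and -1 for other bases, with at least 200 bp, 50% GC and a CpG ratio of 0.6. A bin counted as covered if at least 50% of its bases were inside sites. None of 338 unmasked 50 bp probes of the 5 windows was found outside the chromosomes of GRCm38.p6. The sites listed on scaffolds were therefore not linked to the windows. The windows contained no assembly gap, and repeats made up 17.6% to 23.2% of them. The list does not tell a stretch without H3K27me3 from one where reads could not be placed.

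The members and lists were chosen with earlier results of these data known. The text names all 8 members, genes in their windows, the nearest protein-coding gene on each side of the widest site, the 3 widest sites per locus, 27 pathway genes and the most similar gene for each member. The rest of the pathway list is not reported here. Alternatives varied site width, joining, overlap, window and annotation.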

Additional observations from a re-analysis of the deposited data

How the results depend on the processing

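The 7 main values (members with a site in the window, members with a TSS within 1 kb of a site, and covered bases at each of the 5 loci) were recomputed under 8 or 9 other settings each, which gave 62 values. Of these, 54 were within 1.5 times the reported value. A site in the window was found at 6 instead of 8 members with 5 kb on both sides (43.4% of all protein-coding genes), and at 7 with 20 kb around the most upstream TSS (53.5%). With 5 kb on both sides of the gene body, covered bases were 1328 at Dlx1 and Dlx2, 8475 at Msx1 and 4470 at Msx2. With 50 kb they were 64579 at Dlx3 and Dlx4, 86827 at Msx1 and 17302 at Msx2. A smaller or larger window holds fewer or more bases by construction. A site within 1 kb of a TSS was found at 2 members when the centre of the site had to lie there (18.5% of all genes), and 3 members had a TSS itself inside a site (21.4%). Dlx1 and Dlx2 had the fewest covered bases in all 10 settings, the reported one included. Dlx3 and Dlx4 had the most in all but the 50 kb window, where Msx1 did. Msx2 was above Dlx5 and Dlx6 in all but 3, namely sites of at least 1000 bp, the 5 kb window and 20 kb around the most upstream TSS. The number of sites was less stable, with 17 of 45 values moved by over 1.5 times, mostly by joining or width. No paired analysis was possible because the list holds no value of a single library. Since the sequencing depth reached is unknown, a stretch without a site cannot be read as free of H3K27me3.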

Other observations

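Msx3, the third Msx gene of the mouse, which is active in the dorsal neural tube, was not among the 8 genes and was looked up after their values were seen. Unlike Msx1 and Msx2, its TSS lay inside a site and its body was covered to 100%. Its window held 3 sites and 24.6 kb of covered bases, or 57.3%, which put it at percentile 95.1 of all protein-coding genes. The 3 Msx genes therefore had listed sites in 2 layouts, over the start at Msx3 and on both sides of it at Msx1 and Msx2.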
